A study of Mus musculus with 2 samples.

Results

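The genes described here encode 7 receptors of the immunoglobulin superfamily that are grouped as inhibitory receptors of myeloid cells, Lilrb4a, Lilr4b, Pirb, Sirpa, Cd300a, Cd300lf and Siglece, and 2 phosphatases recruited by such receptors, Ptpn6 and Inpp5d. The 9 genes were taken by symbol from a named list by a rule that sets no limit on measured values, and all 9 were found among the 55536 annotated genes of the tables. Their RNA was measured in the nuclear fraction of bone marrow derived macrophages, which are primary cells grown from marrow, of mouse strain C57BL/6J. All cells had received 100 ng/ml Lipid A, the part of bacterial lipopolysaccharide that Toll-like receptors sense, for 10 min. One label field calls the fraction nucleoplasmic and others call it nuclear, which leaves unclear if RNA on chromatin was part of it. Sex and age are given as not collected, and both libraries cite the same donor identifier.

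Ribosomal RNA was depleted and total RNA sequenced in 2 libraries of 1 group, biological replicates 1 and 2. Replicate 1 was made from 1 µg of RNA and held 19153465 expected counts on annotated genes, and replicate 2 was made from 500 ng and held 11622346. No untreated cells and no other times were analysed here, so levels at 1 time are described and none of them measures a response to Lipid A. Means are given ± SD over both libraries (n = 2). The labels do not say whether the cultures came from separate animals, so the spread between the libraries may be technical in part. In bulk RNA, fewer cells that express a gene and less RNA per cell cannot be told apart.

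As background, the inhibitory receptors among these carry tyrosine motifs, called ITIMs, in their cytoplasmic tails. Lilr4b, whose tail is short, is grouped with them by the list and is not counted here as a carrier of ITIMs. When a kinase of the Src family such as Lyn phosphorylates these tyrosines, the tail binds phosphatases through their SH2 domains. Ptpn6 encodes SHP-1, which removes phosphate from signalling proteins, and Inpp5d encodes SHIP1, which removes a phosphate from the membrane lipid made by PI3-kinase. The receptors belong to families in which inhibitory and activating members have related outer parts and differ in the tail. Their genes are paralogs that often lie side by side, and how alike they are differs by family. Activating members lack ITIMs and signal through adaptors such as Fcer1g and Tyrobp.

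Lilrb4a (gp49B, an inhibitory receptor) and Lilr4b (gp49A, its neighbour with a short tail) show how far the paralogs agree, and another annotated gene, Gm49339, joins them. Below are the first 70 coding bases of the main coding model of each, meaning the one with the longest coding sequence. The bases are read 5′ to 3′ over 2 exons from the GENCODE M21 transcripts on mm10. They are shown because Lilrb4a and Gm49339 differ in where this first exon lies. The 1 capital marks the base at which Lilr4b differs from Lilrb4a.
Lilrb4a-201 (chr10:51491018-51491051 and chr10:51491197-51491232, plus strand): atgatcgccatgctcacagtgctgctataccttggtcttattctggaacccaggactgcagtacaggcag
Gm49339-203 (chr10:51480720-51480753 and chr10:51491197-51491232, plus strand): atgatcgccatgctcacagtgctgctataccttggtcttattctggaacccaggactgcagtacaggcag
Lilr4b-201 (chr10:51480720-51480753 and chr10:51480906-51480941, plus strand): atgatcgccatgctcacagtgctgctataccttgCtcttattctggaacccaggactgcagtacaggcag

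The first 34 bases, from the first coding exon, had 0 differences among the 3 models, although Gm49339-203 takes them from Lilr4b's first exon and Lilrb4a-201 from its own. All 1381 bases of Lilrb4a-201 lie as 1 run inside Gm49339-203, which has 59 more bases before it and 1 more after it. A read from anywhere within Lilrb4a-201 therefore matches Gm49339-203 as well.

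Retained intron models are annotated transcripts that keep intron sequence and have no coding sequence. The stretches below cross the edge of introns kept by the leading models of this type in the first quantification described below. Each window has 60 bases, with intron bases in capitals and coding exon bases in lower case. The stretches are shown because reads over these edges are part of what such a model adds to the spliced one. Reads that lie wholly inside a kept intron are added as well. The first pair gives the end of the corresponding intron in Lilrb4a-206 and Lilr4b-207.
Lilrb4a-206 intron end (chr10:51495964-51496023, plus strand): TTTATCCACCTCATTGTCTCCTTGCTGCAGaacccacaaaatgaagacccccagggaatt
Lilr4b-207 intron end (chr10:51485683-51485742, plus strand): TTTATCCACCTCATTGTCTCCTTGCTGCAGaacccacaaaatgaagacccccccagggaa
Pirb-202 intron start (chr7:3717088-3717147, minus strand): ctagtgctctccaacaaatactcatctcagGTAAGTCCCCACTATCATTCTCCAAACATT
Pirb-202 intron end (chr7:3716861-3716920, minus strand): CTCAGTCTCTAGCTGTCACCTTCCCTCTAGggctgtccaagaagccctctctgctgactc
Sirpa-212 intron start (chr2:129627968-129628027, plus strand): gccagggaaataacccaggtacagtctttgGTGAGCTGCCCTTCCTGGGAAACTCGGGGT

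The windows of Lilrb4a-206 and Lilr4b-207 were identical over their first 52 bases, that is over all 30 intron bases and 22 exon bases. Pirb-202 keeps a short intron of 227 bases whole, and both of its edges are shown.

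Levels were read from the gene tables in TPM, which divides expected counts by effective length and scales them to a fixed sum over all entries of a table, so that genes can be compared with each other. Counting a gene as detected when both libraries reached 1 TPM, 8 of the 9 genes were detected, where 23.6% of all annotated genes and 46.0% of protein-coding genes were. Together the 9 genes held 0.773% of annotated counts in replicate 1 and 0.809% in replicate 2. Their median level was 118.6 TPM. Siglece was the 1 gene not detected.

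Lilr4b had the highest level, with 740.3 TPM in replicate 1 and 944 TPM in replicate 2, from 38372 and 27598 expected counts. Lilrb4a had 777 TPM in replicate 1 and 835 TPM in replicate 2, from 33789 and 21359 counts. Both Lilrb4a values lay between those of Lilr4b, so the order of these neighbours is not settled by the spread. By mean level over the libraries they ranked 67 and 69 among all annotated genes. Lilr4b lies on chromosome 10 from 51480632 to 51486703 and Lilrb4a from 51490956 to 51496611, both on the plus strand.

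Sirpa, the receptor for CD47 that restrains phagocytosis, stood at 690.3 TPM in replicate 1 and 539 TPM in replicate 2, below both gp49 genes in each library. It lies on chromosome 2 from 129592835 to 129632228, on the plus strand. Pirb, the paired receptor that binds MHC class I, had 235 TPM in replicate 1 and 279.8 TPM in replicate 2 (chromosome 7, 3711409 to 3720391, minus strand). All 4 of these receptor genes lay above the 99th percentile of detected protein-coding genes, with Pirb the lowest of them at 99.2.

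The CD300 receptors were lower. Cd300lf, an inhibitory member also called CLM-1, had 85.4 TPM in replicate 1 and 102 TPM in replicate 2 (chromosome 11, 115116214 to 115133992, minus strand). Cd300a, which binds phospholipids exposed on dying cells, had 70.7 TPM in replicate 1 and 62.7 TPM in replicate 2 (chromosome 11, 114890041 to 114904654, plus strand). In the gene tables Cd300lf lay above Cd300a in both libraries.

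Siglece, a receptor for sialic acid, rested on 6 expected counts in replicate 1 and 11 in replicate 2, or 0.16 and 0.47 TPM (chromosome 7, 43651070 to 43660161, minus strand). The deposited intervals of its level reached 0.549 TPM in replicate 1 and 1.03 TPM in replicate 2, around posterior means of 0.29 and 0.63 TPM. By the second quantification, a transcript table made from the same reads, it stood at 0.803 and 1.46 TPM. That table gave it 83 and 82 counts, so the tables differ on the number of its reads. Both tables thus place it near or below 1 TPM.

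Of the phosphatases, Inpp5d had 122 TPM in replicate 1 and 116 TPM in replicate 2 (chromosome 1, 87620312 to 87720507, plus strand), the closest agreement between libraries among the 8 detected genes in TPM. Ptpn6 had 44.3 TPM in replicate 1 and 34.9 TPM in replicate 2 (chromosome 6, 124720707 to 124738714, minus strand). Inpp5d thus lay above Ptpn6 in each library, by both quantifications. The value of Ptpn6 depends on the estimate: its deposited posterior means were 76.2 and 77.1 TPM, with intervals from 42.1 to 135.4 TPM in replicate 1 and from 34.1 to 155 TPM in replicate 2. Within the gene Ptpn6-205, a transcript model of 134 bases with 0 expected counts in both libraries, had upper interval bounds of 87.6 and 116 TPM. By the second quantification Ptpn6 stood at 45.4 and 62.5 TPM. Of this Ptpn6-211, a model of 120 bases, held 13.6 and 28.2 TPM, and the coding model Ptpn6-202 held 14.0 and 20.0 TPM.

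In order of mean TPM the genes ran Lilr4b (842 ± 144), Lilrb4a (806 ± 41.0), Sirpa (614.5 ± 107), Pirb (257 ± 31.9), Inpp5d (119 ± 4.14), Cd300lf (93.6 ± 11.5), Cd300a (66.7 ± 5.68), Ptpn6 (39.6 ± 6.68) and Siglece (0.315 ± 0.219). Lilr4b and Lilrb4a overlapped, and at every other step the lower library of the higher gene lay above the higher library of the next. By the second quantification the steps between Lilrb4a, Lilr4b and Sirpa, between Pirb and Inpp5d, and between Cd300a, Cd300lf and Ptpn6 overlapped. The groups of high, middle and low genes are therefore firmer than the order within them.

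**Figure D1:**
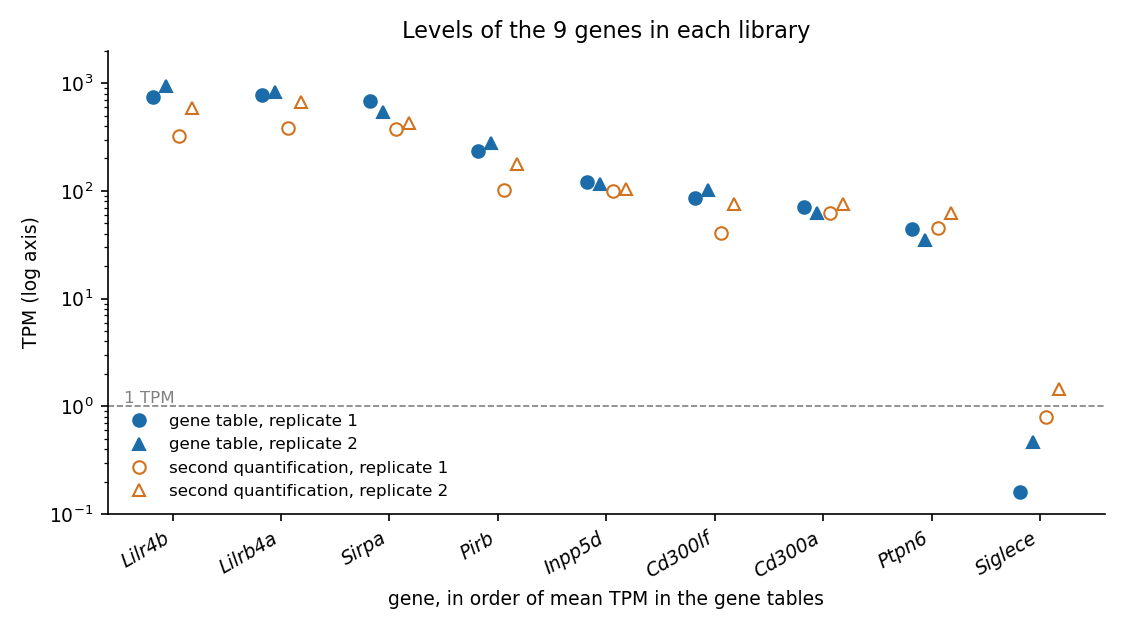
TPM of each gene on a log axis, in order of mean TPM; filled blue marks are the gene tables and open orange marks the second quantification, with circles for replicate 1 and triangles for replicate 2, and the dashed line marks 1 TPM. Lilr4b, Lilrb4a and Sirpa lie together at the top, and Siglece lies at 0.16 and 0.47 TPM in the gene tables.

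The libraries were then set against each other, as log2 of scaled counts in replicate 1 minus replicate 2. With 1 library on each side there is no test. None of the 8 genes with enough counts was more than 2-fold apart, where 1.65% of the 11656 genes compared were past 2-fold with replicate 1 higher and 0.446% with replicate 2 higher. The median difference of the 8 genes was -0.05, beside 0.00 over all genes compared. Sirpa had the largest difference towards replicate 1, at 0.17. Pirb had the largest towards replicate 2, at -0.32, followed by Lilr4b at -0.27 and Cd300lf at -0.23. Those values lay within the 5th to 95th percentile of all genes, from -0.46 to 0.64. Siglece, with 6 and 11 counts, was below the count limit of this comparison.

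The second quantification gave lower TPM for most of the genes. Its median difference from the gene tables was -0.63 on the log2(TPM + 1) scale over the 8 detected genes, beside -0.42 over 10123 detected protein-coding genes. By the mean of the libraries none of the 8 was past 2-fold lower or higher, where 1.58% and 1.47% of those protein-coding genes were. In replicate 1 alone 4 of the 8 were past 2-fold lower, Lilr4b (-1.20), Pirb (-1.20), Cd300lf (-1.04) and Lilrb4a (-1.01), where 16.3% of those genes were. In replicate 2 alone none was, where 0.277% were. Lilr4b (-0.94) and Pirb (-0.93) were lowered most, while Ptpn6 (0.43) and Cd300a (0.04, and -0.19 in replicate 1) were not lowered in the mean. The second value of Ptpn6 includes the short model Ptpn6-211, at 13.6 and 28.2 TPM, which had 0 TPM in the first quantification. When both tables were scaled over protein-coding genes only, the median difference was -0.12 and that of Inpp5d turned from -0.22 to 0.29.

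The annotated type of each gene's transcript models was examined next. The 9 genes have 25 retained intron models, of which 22 reached 1 TPM in both libraries, and 38 coding models, of which 18 did. Retained intron models belong to 6 of the genes, Lilrb4a, Lilr4b, Pirb, Sirpa, Ptpn6 and Inpp5d. Over these 6 genes the median share of TPM held by such models was 56.22%, beside 32.49% over the 6326 detected protein-coding genes that have one. In 3 of the 6 the share was at least 50% in both libraries, where 17.0% of those protein-coding genes passed that limit. The same 3 genes, Lilrb4a, Pirb and Lilr4b, held at least 50% of their expected counts in such models, where 13.9% did. Reads in introns were not counted apart in the tables, so reads of unspliced RNA that fell into these models are included, and their part was not tested.

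**Figure D2:**
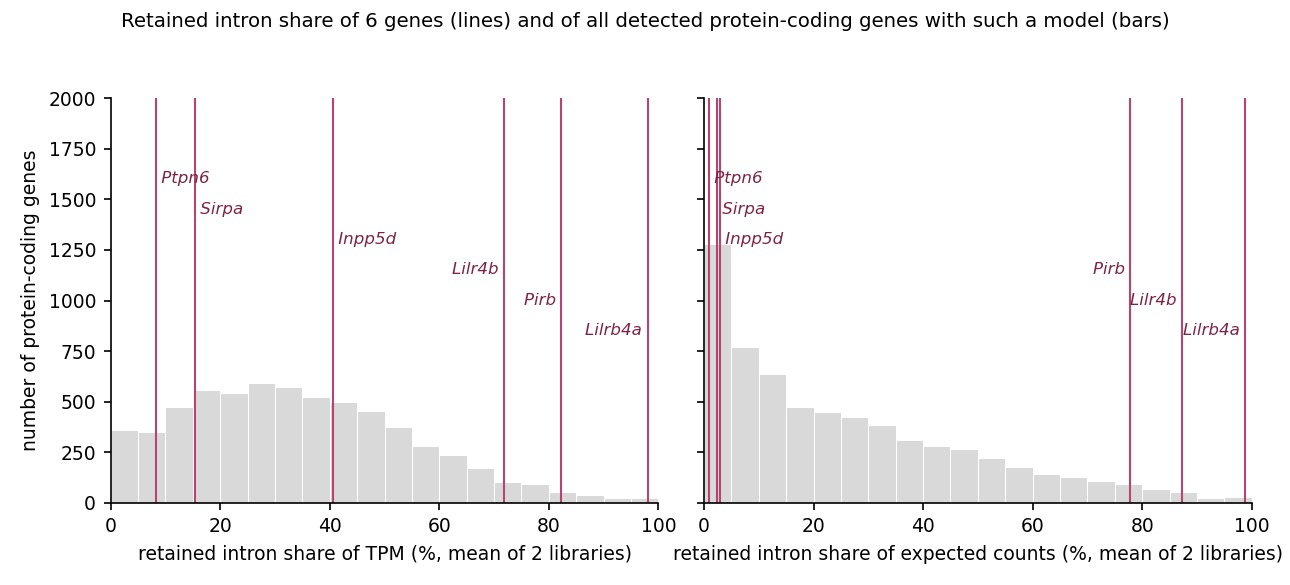
Number of detected protein-coding genes with a retained intron model (grey bars, 5-percent steps) by the share that such models hold of the gene's TPM (left) and of its expected counts (right), mean of 2 libraries; lines mark the 6 genes that have such a model. Lilrb4a, Pirb and Lilr4b lie to the right in both panels, while Inpp5d lies at 40.7% of TPM and 2.93% of counts.

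The gp49 receptors were mostly assigned to retained intron models, and Lilrb4a almost wholly so. For Lilrb4a these models held 98.3% of TPM in replicate 1 and 97.7% in replicate 2. Its 4 coding models together had 1.3 expected counts in replicate 1 and 0 in replicate 2, of 33789 and 21359. Lilrb4a was the 1 gene of the 6 with under 1% of its counts in coding models in both libraries, where 0.49% of the 6326 protein-coding genes were. The nonsense-mediated decay model Lilrb4a-205 held the remainder, with 12.7 and 19.1 TPM.

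Lilrb4a-206 led that gene, with 305.6 TPM in replicate 1 and 383 TPM in replicate 2. It has 1279 bases, of which 778 are intron, and covers the last part of 1 intron and the exons after it. Of its 100-base stretches 76.2% occurred in another gene. Lilrb4a-209, which keeps introns of the 5′ part, had 195 and 207 TPM, and Lilrb4a-207 had 129 and 141 TPM. Lower models were Lilrb4a-211 (42.3 ± 6.29 TPM), Lilrb4a-208 (18.1 ± 8.97 TPM), Lilrb4a-203 (5.91 ± 6.03 TPM) and Lilrb4a-204 (2.81 ± 2.05 TPM). Lilrb4a-214, which keeps most introns, had 68.6 TPM in replicate 1 and 12.8 TPM in replicate 2. Introns from both ends of the gene were thus represented, and the libraries agreed on the leading 3 models but not on Lilrb4a-214.

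The absence of coding counts in Lilrb4a stands beside counts in Gm49339. Gm49339 is annotated as protein coding on the same strand (chromosome 10, 51480612 to 51496613) and spans both gp49 genes. It had 110.2 TPM in replicate 1 and 119.8 TPM in replicate 2, from 3030 and 2141 expected counts. Its model Gm49339-203 held 93.2 and 115 TPM of that. The 1005 coding bases of Gm49339-203 and Lilrb4a-201 are identical, and RNA of these 2 models differs in sequence only outside the 1381 shared bases. By coordinates the 2 models share 1326 bases. The other 55 bases of Lilrb4a-201 are its own first exon, whose letters Gm49339-203 has from the first exon of Lilr4b.

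When Lilrb4a and Gm49339 were pooled, the level was 921 ± 47.7 TPM. Retained intron models then held 85.8 ± 0.46% of TPM and 90.2 ± 0.962% of expected counts. Coding models held 12.1 ± 0.255% of TPM, with 105.5 TPM in replicate 1 and 117 TPM in replicate 2. For scale, the coding models of Inpp5d held 42.1 and 42.7 TPM, of a whole level of 122 and 116 TPM. The near absence of coding counts in Lilrb4a thus holds for the gene as annotated and not for the locus. By the second quantification Gm49339 had 40.5 and 62.7 TPM, and coding models held 0.0789% and 0.142% of Lilrb4a's TPM.

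Lilr4b had 72.9% of its TPM in retained intron models in replicate 1 and 70.7% in replicate 2. Models annotated for nonsense-mediated decay held a further 23.2% and 26.9%. Among these, Lilr4b-204 had the highest mean of any Lilr4b model in the first quantification, with 133 TPM in replicate 1 and 215 TPM in replicate 2. The highest retained intron model by mean there was Lilr4b-207 (123 TPM in replicate 1 and 206 TPM in replicate 2). Next was Lilr4b-206, a single exon of 4004 bases that spans the 5′ introns, with 141 and 62.6 TPM. In replicate 1 Lilr4b-206 was the highest model of the gene, and in replicate 2 it lay below both Lilr4b-204 and Lilr4b-207. Lilr4b-202 (91.7 ± 8.90 TPM), Lilr4b-208 (89.4 ± 10.9 TPM), Lilr4b-203 (76.5 ± 34.9 TPM), Lilr4b-210 (52.2 ± 30.9 TPM), Lilr4b-205 (20.5 ± 1.61 TPM) and Lilr4b-212 (6.75 ± 3.06 TPM) followed. By the second quantification the mean of Lilr4b-204 (40.1 and 100 TPM) lay below those of 3 retained intron models. These were Lilr4b-206 (74.6 and 98.0 TPM), Lilr4b-210 (53.6 and 110 TPM) and Lilr4b-207 (45.6 and 109 TPM). The leading model thus depends on the quantification. The coding models Lilr4b-211 and Lilr4b-201 together held 19.9 and 20.5 TPM, or 2.68% and 2.17% of the gene. Unlike Lilrb4a-201, Lilr4b-201 has sequence that no other gene holds: 34.7% of its 31-base stretches and 11.9% of its 100-base stretches occurred in another gene. Within the gene, however, 98.6% of its 31-base stretches occurred in other models of Lilr4b. Only 0% of its 31-base and 0.17% of its 100-base stretches were found in Lilr4b-201 alone.

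**Figure D3:**
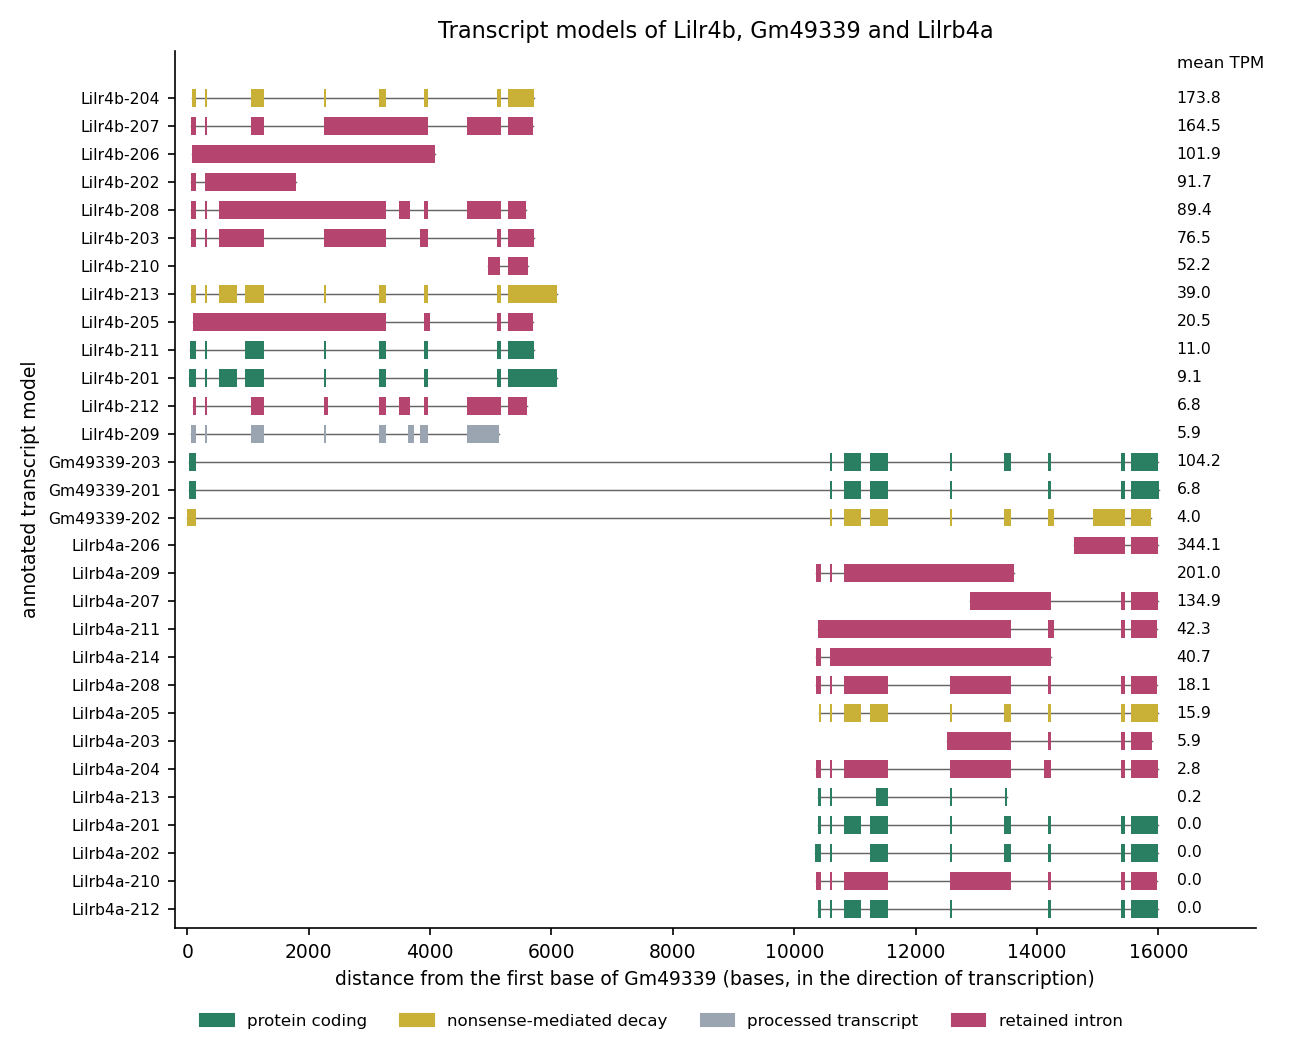
Transcript models of Lilr4b, Gm49339 and Lilrb4a by distance in bases from the first base of Gm49339, boxes for exons and lines for introns, coloured by annotated type, with the mean TPM of 2 libraries at the right. Gm49339-203 (104.2 TPM) joins the first exon of Lilr4b to the exons of Lilrb4a, while the coding models of Lilrb4a stand at 0.2 TPM or less.

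Pirb had 81.3% of its TPM in retained intron models in replicate 1 and 83.2% in replicate 2. Pirb-202, whose start and end of the kept intron are printed above, had 118 and 138 TPM, or 50.3% and 49.4% of the gene. Of its 2923 bases 227 are intron, so most of its length is spliced sequence shared with the coding model. The coding model Pirb-201 had 43.9 and 46.9 TPM. Pirb-205 had 53.4 and 45.3 TPM, Pirb-204 had 13.3 and 38.4 TPM, and Pirb-203 had 5.95 and 10.9 TPM. Pirb-202 was the highest model in both libraries, and 30.5% of its 100-base stretches occurred in another gene.

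Sirpa was mostly assigned to coding models, which held 76.0% of TPM in replicate 1 and 81.4% in replicate 2. The leading coding model was Sirpa-214 in replicate 1 (209 TPM, against 111 TPM in replicate 2) and Sirpa-204 in replicate 2 (217 TPM, against 152 TPM in replicate 1). Its 1 retained intron model, Sirpa-212, had 112 and 77.9 TPM from 1041 and 483 expected counts. Of the 642 bases of Sirpa-212, 565 are intron. No 100-base stretch of it occurred in another model of Sirpa or in another gene, and the posterior SD of its count was 0 in both libraries. Sirpa-212 held 16.2% and 14.5% of the gene's TPM but 2.50% and 2.19% of its counts. By the second quantification coding models held less of Sirpa's TPM, 56.05% and 66.94%. There the processed transcript Sirpa-205 had 44.0 and 42.0 TPM, against 0 and 0.54 TPM in the first.

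Inpp5d gave the widest gap between the units. Its retained intron model Inpp5d-203 held 40.1% of TPM in replicate 1 and 41.3% in replicate 2 (48.7 and 47.8 TPM). In expected counts it held 2.74% and 3.12%, from 154 of 5624 counts and 105.5 of 3383. It has 364 bases and only 24 of them are intron, and its effective length was 141 and 153 bases. The main coding model Inpp5d-210 had 27.5 and 21.8 TPM from 2912.6 and 1492.1 counts, so it held more reads than Inpp5d-203 and less TPM. The processed transcript Inpp5d-206 had 22.5 and 15.9 TPM.

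Ptpn6 was mostly assigned to coding models in both libraries. Ptpn6-202 had 34.6 and 31.6 TPM and held 78.1% and 90.5% of the gene's TPM. In the first quantification the retained intron model Ptpn6-204 had 6.9 TPM from 30.3 counts in replicate 1 and 0 in replicate 2. There this share rests on 1 library. By the second quantification Ptpn6-204 had 11.6 and 6.26 TPM, and retained intron models held 29.75% and 14.11% of the gene's TPM. The 2 CD300 genes and Siglece have no retained intron model. Cd300a-202, a coding model, held 89.2% and 90.0% of Cd300a's TPM in the first quantification. In the second, the processed transcript Cd300a-203, of 467 bases, had 30.3 and 28.8 TPM and coding models held 51.2% and 61.6%. For Cd300lf the processed transcript Cd300lf-206 (37.2 and 33.2 TPM) stood beside the coding model Cd300lf-203 (27.2 and 47.9 TPM), and coding models held 54.1% and 66.4% of TPM. In expected counts processed transcripts held 65.5% and 53.7% of Cd300lf and coding models 34.5% and 46.3%, so the larger type depends on the unit.

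**Figure D4:**
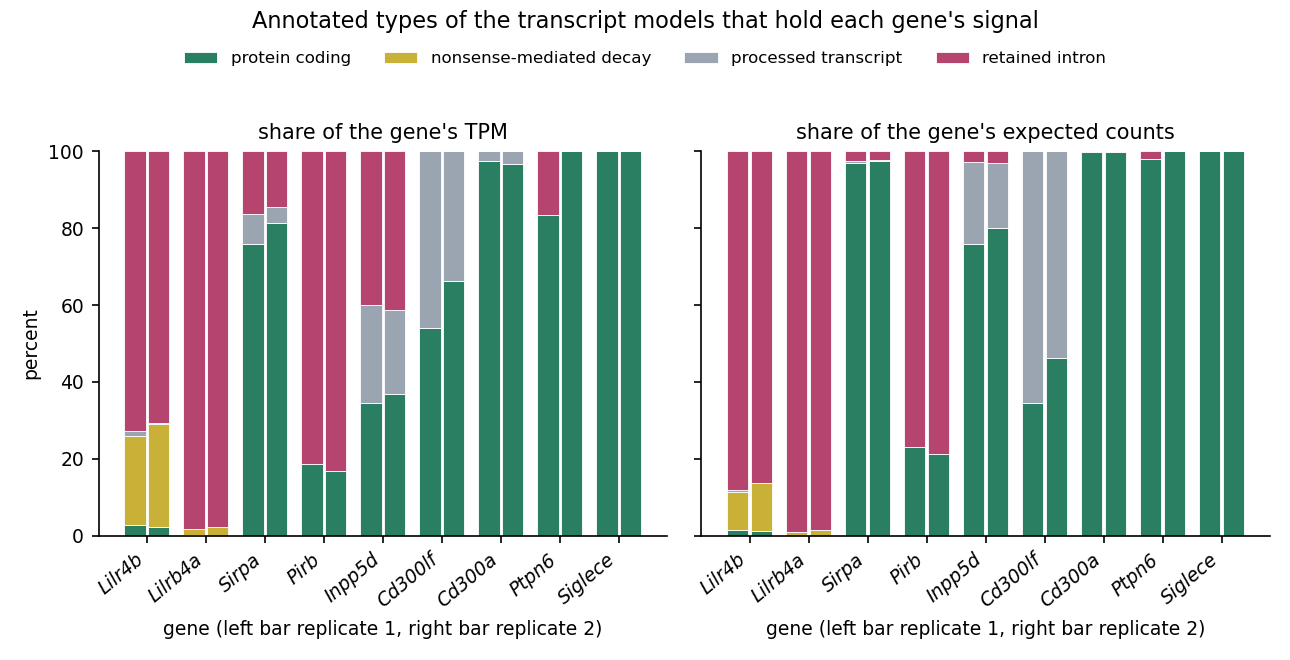
Share of each gene's TPM (left) and of its expected counts (right) by annotated type of transcript model, left bar replicate 1 and right bar replicate 2 for each gene, in order of mean TPM. Lilr4b, Lilrb4a and Pirb are mostly retained intron in both panels, while the retained intron share of Inpp5d is 40.1% of TPM and 2.74% of counts in replicate 1.

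Taking coding models alone changed the order of the genes. Sirpa led with 481.5 ± 60.7 TPM in coding models, followed by Cd300a (64.7 ± 5.88), Cd300lf (56.8 ± 15.1), Pirb (45.4 ± 2.09), Inpp5d (42.4 ± 0.424), Ptpn6 (35.9 ± 1.49), Lilr4b (20.2 ± 0.431), Siglece (0.315 ± 0.219) and Lilrb4a (0.215 ± 0.304). The steps from Cd300a to Cd300lf, from Cd300lf to Pirb and from Siglece to Lilrb4a overlapped. These values are those of the first quantification. By the second, coding models held 51.24% and 61.65% of Cd300a's 62.05 and 75.16 TPM in replicates 1 and 2. They held 44.18% and 44.99% of Inpp5d's 99.77 and 103.9 TPM. Pirb-201, the 1 coding model of Pirb, had 16.4 and 28.9 TPM there. The order in the middle thus depends on the quantification. The gp49 genes, highest by the whole gene, were thus among the lowest by annotated coding models, although Lilrb4a's place there depends on Gm49339. Lilr4b's place depends on how reads were split among its own models. Of the 31-base stretches of Lilr4b-201 and of Lilr4b-211, 0% were found in the model itself and nowhere else. The nonsense-mediated decay models Lilr4b-204 and Lilr4b-213, with most of the same exon sequence, had means of 173.8 and 39.0 TPM.

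Reads shared by paralogs were examined in the sequence and in the deposited spread of the counts. The annotated transcripts of each gene were divided into all distinct stretches of 31, 50 and 100 bases, and those also held by another gene, on either strand, were counted. The genes differed widely. Of the 100-base stretches, 35.2% of Lilrb4a, 20.8% of Pirb and 8.80% of Lilr4b were held by another gene, while the values were 3.26% for Ptpn6, 0.85% for Cd300a, 0.64% for Cd300lf and 0% for Sirpa, Siglece and Inpp5d. At 31 bases the shares were 56.1% for Lilrb4a, 44.1% for Pirb and 37.3% for Lilr4b. When Gm49339 was not counted as another gene, 10.2% of Lilrb4a's 100-base stretches were shared.

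**Figure D5:**
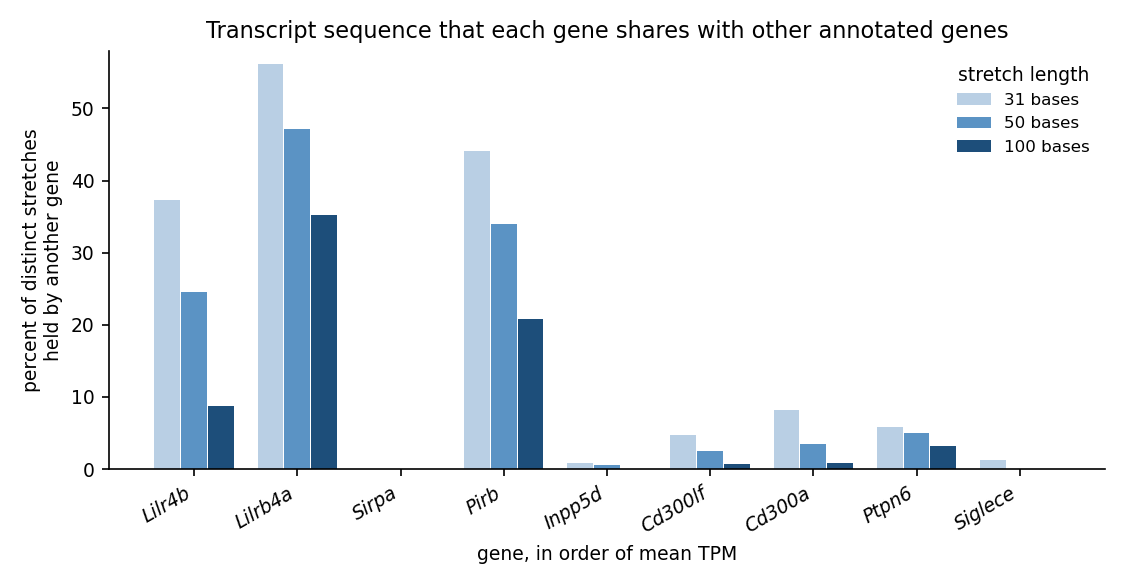
Percent of each gene's distinct transcript stretches of 31, 50 and 100 bases (light to dark bars) that another annotated gene also holds, in order of mean TPM. Lilrb4a, Pirb and Lilr4b stand above the rest at every length, and Sirpa shows almost none.

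The partners that held the most 100-base stretches were family members, their pseudogenes or genes that overlap. Main coding sequences were aligned end to end, and identity is given over bases aligned to a base. Lilrb4a-201 and Lilr4b-201 were identical at 871 of 907 aligned bases (96.0%), with a longest shared run of 126 bases in the coding sequence and 295 bases over all models. Their coding lengths are 1005 and 909 bases. Lilr4b and Lilrb4a were thus close along their coding sequence, but broken up often enough that few 100-base stretches were common to both.

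Apart from Lilrb4a and Gm49339, Pirb had the longest coding runs in common with relatives. These lie on chromosome 7 as Pirb does, and Pira2 is an activating PIR-A receptor. Pirb was 95.8% identical to Gm14548, with a shared run of 523 bases, and 95.4% identical to Pira2, with a run of 477 bases. Gm14548 stood at 12.2 and 15.0 TPM in replicates 1 and 2, while Pira2 had 41.3 and 35.0 TPM. The 5 genes sharing the most 100-base stretches with Pirb together held 5328 counts in replicate 1 and 3543 in replicate 2, beside 15365 and 11461 for Pirb. Pirb's count was thus larger than that of these partners combined in each library.

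The CD300 genes shared less. Cd300a was 81.3% identical to Cd300c2, with a shared run of 140 bases, and Cd300c2 had 65.3 and 42.0 TPM. Cd300lf was 82.8% identical to Cd300ld, with a run of 134 bases, and Cd300ld had 12.4 and 11.7 TPM. Sirpa was 70.0% identical to Sirpb1b, with a run of 31 bases. The phosphatases were less like their relatives: Ptpn6 was 64.1% identical to Ptpn11, which encodes SHP-2, and Inpp5d was 63.7% identical to Inppl1, which encodes SHIP2, with runs of 17 and 20 bases. The stretches Ptpn6 shared were those of Gm20531, annotated antisense to it, which had 1.07 and 1.53 TPM. How strand was handled is not given in the sources used here. If strand was not used, reads of Ptpn6 and Gm20531 could not be told apart where they overlap. The same question applies to the stretches that Lilrb4a shares with its antisense neighbour Gm40645 (0.86 and 0.52 TPM). The posterior SD of the count was 2.96% and 4.96% of its mean for Gm20531 and 0% in both libraries for Gm40645. Rab37 (0.41 and 0.42 TPM) spans Cd300lf on the opposite strand, but was not among the genes holding a 100-base stretch of it.

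The deposited posterior SD of a count measures how far reads could be moved between genes. Divided by the posterior mean count, it was over 5% in none of the 8 detected genes, where 2.99% of detected protein-coding genes were over that limit in a library. It was highest for Lilrb4a, at 0.253% in replicate 1 and 0.377% in replicate 2, and was 0.0968% and 0.111% for Pirb, 0.076% and 0.0914% for Lilr4b, and 0% for Sirpa and Inpp5d. For Gm49339 it was 2.68% and 3.66%. The lower relatives had wider spreads, such as Cd300ld5 at 36.3% and 44.5% and Sirpb1c at 10.3% and 17.3%. Within a gene the split between models was less certain than the gene's count: the posterior SD of Pirb-202 was 160 counts in replicate 1, beside 14.9 for Pirb as a whole. These spreads cover the assignment under the annotated models only.

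The wider families were described from lists of relatives. Of the LILR and PIR list 5 of the 6 genes matched by symbol were detected, and 6 listed symbols had no match. Lilrb4a, Lilr4b and Pirb were the highest of that list and Lilra5 the lowest, with 1 and 0 counts. Of 12 CD300 genes 9 were detected, led by Cd300lf, Cd300a and Cd300ld3 (63.6 and 59.1 TPM), with Cd300lg lowest (0.04 and 0.03 TPM). Of the SIRP list, 2 of 7 were detected, Sirpa and Cd47, the gene of its ligand, with 64.3 TPM in replicate 1 and 51.7 TPM in replicate 2. Sirpb1c was next, with 1.28 and 0.52 TPM, and Gm9733 had 0 counts in both, with upper limits of 0.341 and 0.512 TPM (3 counts).

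Siglece's own family was led by other members. Of 9 Siglec genes 3 were detected. The second quantification put 5 past the limit, and there Mag stood at 6.46 and 9.68 TPM, against 0.65 and 0.39 TPM, and Siglech at 1.22 and 1.72 TPM. The 3 were Siglec1, the sialic acid receptor CD169 of macrophages (58.7 and 32.7 TPM), Cd33 (29.0 and 41.7 TPM) and Cd22 (2.74 and 2.68 TPM). Siglec15 had 0 counts in both, with upper limits of 0.144 and 0.22 TPM. The sharing of Siglece sequence with other genes was 1.19% at 31 bases and 0% at 50 bases, so no other annotated gene holds a 50-base stretch of it.

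Of 14 other inhibitory receptors 11 were detected. Fcgr2b, the inhibitory Fc receptor that signals through SHIP1, was highest, with 314 TPM in replicate 1 and 278 TPM in replicate 2. By mean it was followed by Cd200r1 (60.9 and 71.8 TPM) and Clec12a (63.7 and 68.0 TPM), with Vsir, which was above both in replicate 1, close behind (77.3 and 50.9 TPM). Pdcd1, the gene of PD-1, had 0 counts in both, with upper limits of 0.0783 and 0.121 TPM. Fcgr2b lay above Pirb in replicate 1 and just below it in replicate 2.

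Of the 9 genes on the list of SH2 phosphatases and adaptors all were detected. Inpp5d was highest, followed by Csk, the kinase that holds Src family kinases inactive (49.3 and 36.8 TPM), and Ptpn6. By mean Ptpn11 was lowest, with 9.45 and 6.45 TPM, although Dok3 was lower in replicate 1 (8.67 TPM). Ptpn6 had 44.3 and 34.9 TPM, so the SHP-1 gene lay above the SHP-2 gene in each library. Of 7 kinases and activating adaptors 6 were detected. By mean the highest were Fcer1g (175 and 130.4 TPM), Syk (140.4 and 132 TPM) and Tyrobp, which encodes the adaptor DAP12 (186 and 77.2 TPM), and Fgr was lowest (0.26 and 0.32 TPM). Lyn, the kinase named above, had 71.2 and 59.98 TPM.

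The labelled cell type was checked with marker genes. All 7 macrophage markers were detected, with Lyz2 at 2309 and 1215 TPM and Csf1r at 532 and 505 TPM. None of the 6 B cell, 7 mast cell and basophil, 5 dendritic cell or 6 T and NK cell markers was detected in the gene tables, and 1 of 8 neutrophil markers was, S100a8 with 9 and 7 counts. The neutrophil list summed to 5.5 and 4.28 TPM in replicates 1 and 2, with Ly6g and Elane at 0 counts in both. The summed level of the B cell list, whose cells also carry Pirb and Inpp5d, was 0.98 and 1.38 TPM. By the second quantification Siglech and Cd3d passed 1 TPM in both libraries, at 1.22 and 1.72 TPM and at 2.53 and 10.1 TPM.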

How the data were processed

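Nuclear RNA was measured in 2 libraries of 1 group. Per the text files deposited beside the tables, gene and transcript tables were made from transcriptome alignments to mm10 with GENCODE M21, and a second transcript table from the reads with the same annotation. Which programs made them is not given in the sources used here; their columns are named as RSEM and kallisto name them. The authors deposited expected counts, estimates that need not be whole, and TPM, scaled over all entries of a table. Per the file headers, the transcript tables also hold each transcript's percent of its gene's TPM. The deposited posterior SD of the count and the bounds of the TPM interval are a signal that is never negative; the bounds lie around the posterior mean, and the TPM can fall outside them.

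Of the entries, 26345 did not name a gene of the annotation and were dropped; they held 1.18% and 0.405% of counts. Library differences used rounded expected counts, edgeR 4.0.16 TMM scaling, 1 added as pseudocount, and genes averaging 50 counts or more; DESeq2 1.42.0 size factors were an alternative. No p-value was computed, since each side has 1 library, and the scaling was tested on simulated data. Retained intron shares are sums over models of that annotated type. A count of 0 allows up to 3 counts; limits cover counting error only. Sequences are GENCODE M21 transcripts, aligned with Biopython 1.88. Neighbouring genes in an order were called apart where the libraries did not overlap. All 9 genes were named, with their highest coding model and each retained intron model at 1 TPM in both libraries; from each list the 3 highest genes, the lowest and those at 0 were named, and paralogs where sharing was described. The members and lists were chosen with earlier results of these data known. Python 3.11.15 with numpy 2.4.6 and pandas 2.3.3 was used.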

Additional observations from a re-analysis of the deposited data

How the results depend on the processing

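No median over the genes changed sign under the alternatives run. Small differences of single genes did: the library difference of Inpp5d (-0.01) was 0.07 on log2(TPM + 1) and 0.07 by the second quantification, that of Ptpn6 (-0.01) was 0.34 and 0.04, the difference between quantifications of Inpp5d (-0.22) was 0.29 over protein-coding genes only, and that of Cd300a (0.04) was -0.19 in replicate 1 alone. The number of detected genes was 8 or 9 under other limits, tables and single libraries. The median level, 118.6 TPM, was 113.7 TPM by the posterior mean, 101.8 TPM by the second quantification and 392.6 TPM when TPM was scaled over protein-coding genes only. The median retained intron share, 56.22% of TPM, was 40.35% of expected counts, 57.43% by the second quantification and 68.39% when processed transcripts were added. The median difference between the quantifications, -0.63, was -0.12 when both were scaled over protein-coding genes only, and it ranged from -0.94 to -0.32 over the single libraries. Pooling Lilrb4a with Gm49339 was chosen after seeing the data. No paired analysis was possible because there is only 1 group. Single models of few counts, Siglece and the split of reads between Lilrb4a and Gm49339 are limited by depth or annotation.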
